A study of Mus musculus with 36 samples.

Results

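The imprinted fetal growth genes examined here were Igf2, H19, Meg3, Dlk1, Mest, Peg3, Plagl1, Cdkn1c, Grb10 and Ndn, a set of 10 genes that are expressed mainly from the maternal or the paternal chromosome. Each was taken as the array feature annotated with its symbol alone. Such a feature was found for 9 of the 10 genes, out of 28940 features analysed, and each of the 9 had 1 such feature. No feature was annotated as H19 alone, so H19 has no value here. A feature annotated as Mir675, the microRNA whose hairpin RefSeq places inside H19, is given under its own name and is not counted among the 9.

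The cells were lung lavage macrophages depleted of Ly-6G-positive cells, from male C57Bl/6N Tac mice that carried the Scnn1b transgene (Tg) or were wildtype (WT) littermates. The transgene drives Scnn1b, a subunit of the airway sodium channel, from a club cell promoter, and the airway surface of these mice is dehydrated. There were 36 arrays in 10 groups: Tg and WT at postnatal day (PND) 0 with 3 arrays per genotype, 3 later ages (PND 3, 10 and 42) with 4 arrays per genotype, and a germ-free (GF) colony at PND 42 with 3 arrays per genotype. All but the GF mice lived under specific pathogen free (SPF) conditions. Each array at PND 0, 3 and 10 held cells pooled from 3 pups, and each array at PND 42 held cells of a single mouse. The GF mice lived in a separate facility, so housing and facility cannot be told apart. All values are log2 intensities after robust multi-array averaging (RMA), a scale on which 1 unit is a 2-fold change, and levels of different genes are not comparable on it.

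Imprinted genes carry DNA methylation marks set in the germ line that silence either the maternal or the paternal copy. Many of them act on fetal growth: paternally expressed genes such as Igf2 tend to promote it, and maternally expressed genes such as Cdkn1c, Grb10 and H19 tend to restrain it. In many mouse organs a shared group of these genes is abundant in the fetus and falls after birth as growth slows. They are known chiefly from mesenchymal, muscle and other fetal tissue cells rather than from macrophages.

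Macrophage transcripts were abundant on all arrays, but the newborn samples were not uniform. The mean of the 10 pan-macrophage genes (Ptprc, Cd68, Csf1r and others) was 8.79, 9.27 and 9.35 in Tg replicates 1, 2 and 3 at PND 0, and 9.64, 9.56 and 9.05 in WT replicates 1, 2 and 3. Siglecf, a surface lectin of mature alveolar macrophages, was 2.41 ± 0.21 (SE) higher at PND 3 than at PND 0 in Tg and 2.89 ± 0.21 higher in WT. Its list did not move as a whole, and Siglecf had the largest rise of the list in WT. Of 13 alveolar macrophage genes, 5 were higher and 3 lower at PND 3 in each genotype (median change 0.53 in Tg, 0.26 in WT). Of all features, 16.0% were higher and 14.0% lower in Tg, and 14.0% higher and 12.0% lower in WT. Scnn1b, the gene of the transgene, read 10.23 and 10.33 in Tg replicates 1 and 2 at PND 0 but 5.47 in the library labelled Tg replicate 3, within the WT range of 4.06 to 6.68. Results for the 9 genes and counts of the gene lists at PND 0 are therefore also given without that library. A low Scnn1b reading alone does not settle the genotype of an array. By the limma test used below, Scnn1b was higher in Tg at PND 3 (2.45 ± 0.59, adjusted p = 0.0113). It did not pass at PND 10 (0.61), at PND 42 (0.18) or in GF mice (0.68).

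The clearest pattern was a drop between PND 0 and PND 3. All 9 measured genes were lower at PND 3 in Tg and in WT (limma, Benjamini-Hochberg over all features). Of all features, 14.0% were lower in Tg by the same rule and 12.0% in WT. The median change of the 9 genes was -3.92 in Tg and -2.89 in WT, beside 0.04 and 0.00 over all features. Every PND 3 array lay below every PND 0 array for 9 of the 9 genes in Tg, where 13.4% of all features did so, and for 8 of the 9 in WT, where 12.7% did so. Ndn in WT was the exception.

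**Figure D1:**
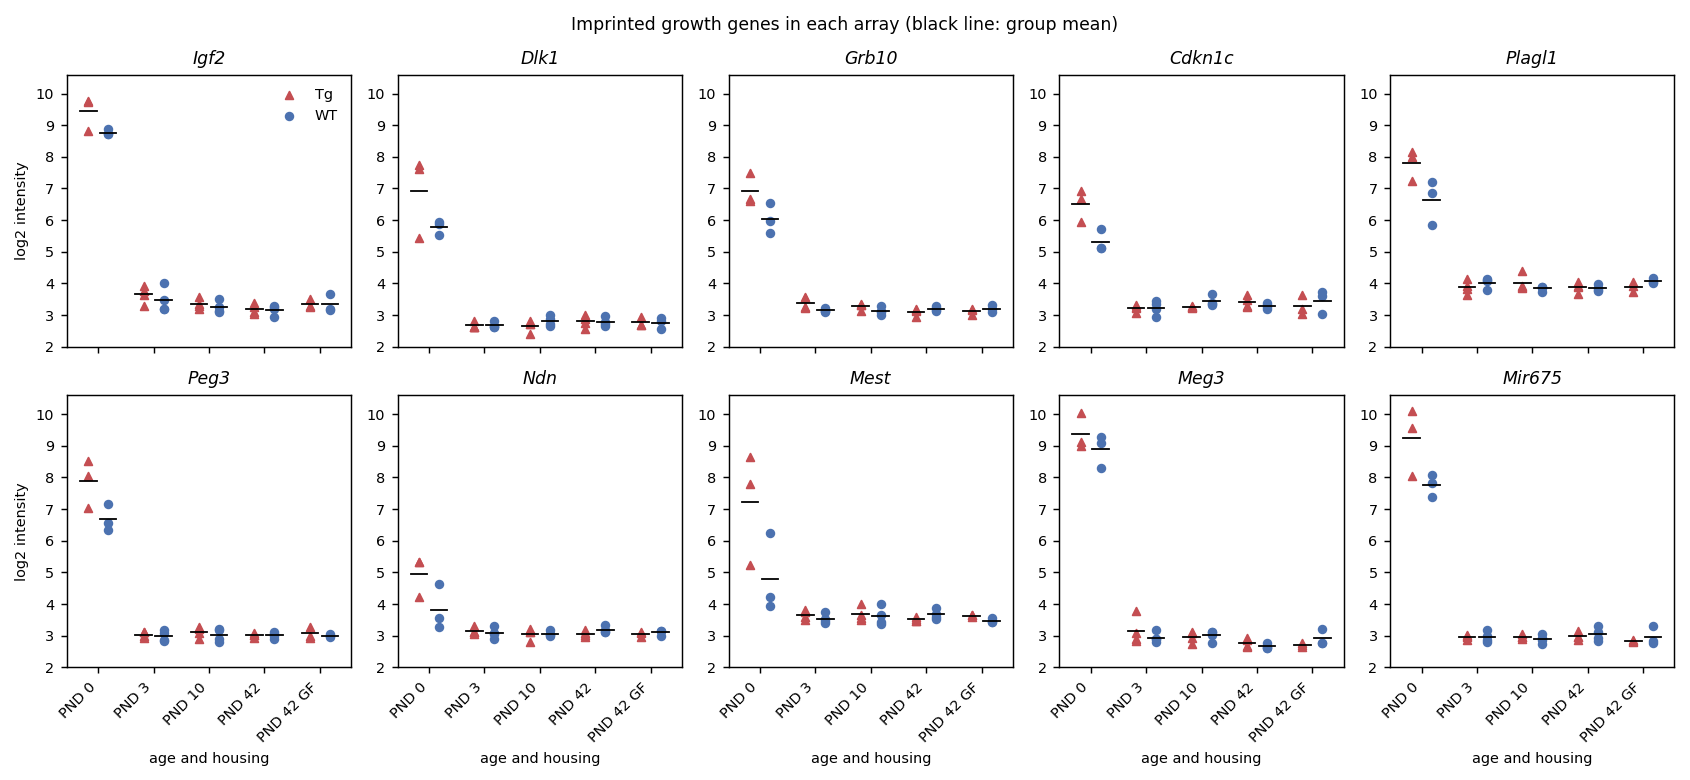
Log2 intensity (y axis) of the 9 measured imprinted genes and of the Mir675 feature on each of 36 arrays, by age and housing (x axis), with Tg arrays as red triangles, WT arrays as blue circles and group means as black lines. All panels share 1 y scale; the PND 0 arrays stand above all later arrays of the same panel except for Ndn and Mest, whose lowest PND 0 array lies just below the highest later array, and the later arrays lie between 2.41 and 4.38.

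Sequences of 4 genes that have a single promoter in the RefSeq table (GRCm38.p6, 250 bases before to 50 bases after the transcription start) were compared for CG dinucleotides. DNA methylation is written at CG, but it was not measured here. Whether these windows carry imprinting marks was not tested. Plagl1 and Dlk1 are shown because they had the most and the fewest CG among the 4, with CG in capitals. Plagl1 lies on the plus strand at chr10:13090582-13090881 and Dlk1 on the plus strand at chr12:109452573-109452872.
Plagl1: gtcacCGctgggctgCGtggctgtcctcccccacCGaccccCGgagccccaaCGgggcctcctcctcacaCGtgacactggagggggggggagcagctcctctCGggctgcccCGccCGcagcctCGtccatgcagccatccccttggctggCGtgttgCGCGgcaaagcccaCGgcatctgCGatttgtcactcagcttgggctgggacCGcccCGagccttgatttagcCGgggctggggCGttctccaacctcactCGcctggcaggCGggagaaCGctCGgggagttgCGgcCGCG
Dlk1: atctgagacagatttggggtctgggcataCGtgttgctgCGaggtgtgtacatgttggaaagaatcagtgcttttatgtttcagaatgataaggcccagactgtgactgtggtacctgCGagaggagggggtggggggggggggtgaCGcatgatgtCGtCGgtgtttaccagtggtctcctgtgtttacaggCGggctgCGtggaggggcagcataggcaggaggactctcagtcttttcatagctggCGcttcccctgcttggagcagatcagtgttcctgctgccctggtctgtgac
The Plagl1 promoter held 26 CG, Peg3 13, Ndn 11 and Dlk1 9, where the median of 32851 promoters was 7. As many CG or more were found in 16.9% of all promoters for Plagl1, 37.9% for Peg3, 41.4% for Ndn and 45.8% for Dlk1. The letters GGGCGG, searched on both strands, occurred 2 times each in Plagl1 and Ndn and 0 times in Dlk1 and Peg3, and 35.7% of all promoters held them. The letters TATAAA, on both strands, were in 0 of the 4 windows and in 13.6% of all promoters. In the RefSeq table, 8 of the 10 genes matched a promoter.

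Of the ligands, Igf2 encodes insulin-like growth factor 2, the chief fetal growth factor of this family. At PND 0 it read 9.76, 8.83 and 9.72 in Tg replicates 1 to 3, and 8.72, 8.86 and 8.71 in WT replicates 1 to 3. At PND 3 the arrays read 3.91, 3.77, 3.28 and 3.64 in Tg, and 3.20, 3.20, 4.00 and 3.49 in WT. The ages were thus separated by more than 4 units in both genotypes. The change was -5.79 ± 0.19 in Tg (adjusted p = 5.47e-20) and -5.29 ± 0.19 in WT (adjusted p = 6.99e-19), rank 12 and rank 14 among the decreases of all 28940 features. A further feature shared by Igf2 and its antisense gene Igf2os read 4.35, 4.63 and 4.21 in Tg and 3.73, 4.47 and 3.62 in WT at PND 0, a dimmer signal than that of the Igf2 feature itself.

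Dlk1 encodes a transmembrane protein related to Notch ligands that holds back differentiation of fat and muscle precursors. It read 7.73, 5.43 and 7.62 in Tg at PND 0, and 5.89, 5.52 and 5.93 in WT. The PND 3 arrays lay between 2.62 and 2.80 in Tg and between 2.62 and 2.81 in WT. Dlk1 changed by -4.26 ± 0.28 in Tg (adjusted p = 4.73e-13) and by -3.11 ± 0.28 in WT (adjusted p = 5.68e-10). Tg replicate 2 lay below all 3 WT arrays at PND 0, and the other two Tg arrays lay above them.

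The inhibitors Grb10 and Cdkn1c fell with the ligands. Grb10, an adaptor that dampens insulin and IGF1 receptor signalling, read 7.48, 6.59 and 6.66 in Tg at PND 0, and 5.60, 5.97 and 6.53 in WT. It changed by -3.51 ± 0.16 in Tg (adjusted p = 9.34e-17) and by -2.89 ± 0.16 in WT (adjusted p = 1.27e-14), to between 3.22 and 3.57 in Tg and between 3.10 and 3.24 in WT. Cdkn1c, which encodes the cell cycle inhibitor p57Kip2, read 6.65, 5.93 and 6.93 in Tg at PND 0, and 5.11, 5.12 and 5.73 in WT. Its change was -3.30 ± 0.19 in Tg (adjusted p = 1.24e-14) and -2.09 ± 0.19 in WT (adjusted p = 3.71e-10). For both inhibitors every Tg array at PND 0 lay above every WT array.

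Among the nuclear regulators, Plagl1 encodes the zinc finger factor Zac1, which in mouse is known to act on other imprinted genes. It read 8.01, 7.22 and 8.15 in Tg at PND 0, and 5.83, 6.84 and 7.20 in WT, and changed by -3.92 ± 0.21 in Tg (adjusted p = 2.58e-15) and by -2.60 ± 0.21 in WT (adjusted p = 3.58e-11). Peg3, a paternally expressed zinc finger gene, read 8.52, 7.04 and 8.06 in Tg at PND 0, and 6.56, 7.17 and 6.33 in WT, and changed by -4.84 ± 0.20 in Tg (adjusted p = 9.14e-18) and by -3.69 ± 0.20 in WT (adjusted p = 8.47e-15). Peg3 in Tg replicate 2 lay inside the WT range, and Plagl1 in that replicate lay just above the highest WT array.

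Ndn, which encodes the MAGE family protein necdin, had the smallest change of the 9. It read 5.32, 4.22 and 5.33 in Tg at PND 0, and 3.27, 4.64 and 3.57 in WT. At PND 3 the arrays read 3.30, 3.10, 3.05 and 3.13 in Tg, and 3.05, 2.88, 3.10 and 3.30 in WT, so the WT groups overlapped. The change was -1.81 ± 0.21 in Tg (adjusted p = 5.62e-08) and -0.74 ± 0.21 in WT (adjusted p = 0.00854). Without WT replicate 2 at PND 0 the WT change was -0.34 (adjusted p = 0.224).

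Mest, which encodes a protein of the alpha/beta hydrolase fold that is abundant in fetal mesoderm, varied most between newborn arrays. It read 8.65, 5.22 and 7.79 in Tg at PND 0, and 3.95, 6.26 and 4.21 in WT. At PND 3 it read 3.49, 3.60, 3.74 and 3.80 in Tg, and 3.53, 3.74, 3.46 and 3.41 in WT. WT replicate 2 stood well above the other two WT arrays, which were close to the PND 3 level. The change was -3.56 ± 0.45 in Tg (adjusted p = 2.03e-07) and -1.27 ± 0.45 in WT (adjusted p = 0.0358), and without WT replicate 2 at PND 0 the WT change was -0.54 (adjusted p = 0.448).

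Meg3, the maternally expressed long noncoding RNA of the Dlk1 domain, had the largest decrease of the 9 genes. It read 8.98, 10.03 and 9.13 in Tg at PND 0, and 8.31, 9.28 and 9.09 in WT. At PND 3 it read 3.09, 2.84, 2.89 and 3.77 in Tg, and 3.19, 2.79, 2.88 and 2.88 in WT. The change was -6.24 ± 0.21 in Tg (adjusted p = 1e-19) and -5.96 ± 0.21 in WT (adjusted p = 5.44e-19), rank 10 and rank 6 among the decreases of all features. Its highest newborn value in each genotype was in replicate 2, the Tg array that was lowest for the other 8 genes.

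Mir675 stands on chromosome 7 next to Igf2, and RefSeq places its hairpin within H19. The feature read 10.09, 8.04 and 9.57 in Tg at PND 0, and 7.37, 8.08 and 7.83 in WT, and lay between 2.75 and 3.30 on all 30 later arrays. It changed by -6.27 ± 0.25 in Tg (adjusted p = 3.19e-18) and by -4.81 ± 0.25 in WT (adjusted p = 2.62e-15). An array feature at a hairpin also takes up the RNA that hosts it, so the mature microRNA was not measured apart. Both mature products are shown, from RefSeq (GRCm38.p6), with the seed, bases 2 to 8, in capitals.
miR-675-5p: uGGUGCGGaaagggcccacagu
miR-675-3p: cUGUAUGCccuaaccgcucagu
The 2 seeds differ from each other.

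**Figure D2:**
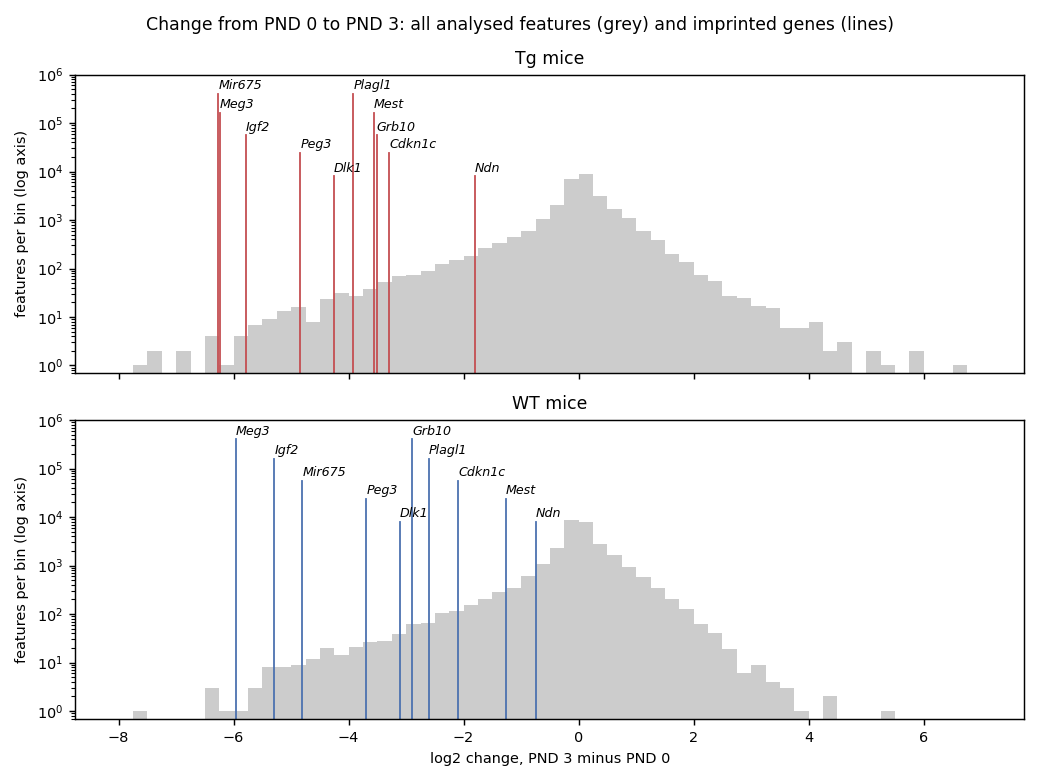
Number of features per bin of 0.25 (y axis, log scale) by log2 change, PND 3 minus PND 0 (x axis), for all 28940 features in Tg (top) and WT (bottom), with vertical lines at the 9 imprinted genes and Mir675. All lines lie left of 0, and Meg3 and Igf2 stand in the far left tail in both genotypes, below -5 units.

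After PND 3 no further change was called. Of the 9 genes, 0 were called between PND 10 and PND 3 or between PND 42 and PND 10 in either genotype, and 0 had an unadjusted p under 0.05; of all features, 1.45% and 4.61% were called in these steps in Tg, and 0.131% and 2.50% in WT. The 95% intervals of these changes lay between -1.01 and 0.87 in Tg and between -0.80 and 0.93 in WT. Across the 30 later arrays Dlk1, Grb10, Cdkn1c, Peg3, Ndn and Meg3 were below the median of their own array in 30 of 30 cases. Igf2 was above it on 2 arrays, Mest on 4 and Plagl1 on 25, with Plagl1 between 3.64 and 4.38. No detection call was used, and RMA tends to compress changes of dim features. In the order of the groups PND 0 stood above all later ages, and no difference was called between neighbouring later groups.

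The housing comparison at PND 42 gave the same picture. Between GF and SPF mice, 0 of 9 genes were called in Tg and 0 in WT, where 0.142% and 0.0657% of all features were called, and 0 had an unadjusted p under 0.05. The differences, GF minus SPF, ranged between -0.14 and 0.17 in Tg and between -0.20 and 0.26 in WT.

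Newborn Tg arrays had higher levels of most of these genes than WT arrays. At PND 0, 7 of 9 genes were higher in Tg and 0 were lower, where 2.74% of all features were higher and 1.59% lower. The median difference, Tg minus WT, was 1.15 over the 9 genes and -0.02 over all features. Every Tg array lay above every WT array for 3 of the 9 genes, Grb10, Cdkn1c and Plagl1, where 4.21% of all features did so. With 3 arrays per genotype these adjusted p-values rest on the spread shared across all 10 groups. The SE and intervals below rest on it too. They understate the newborn error of genes such as Mest, whose newborn arrays varied most.

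Mest had the largest difference, 2.42 ± 0.48 (5.34-fold, adjusted p = 0.00291). Cdkn1c differed by 1.19 ± 0.20 (adjusted p = 0.000527), Peg3 by 1.19 ± 0.22 (adjusted p = 0.00116), Plagl1 by 1.17 ± 0.22 (adjusted p = 0.00181) and Ndn by 1.13 ± 0.23 (adjusted p = 0.0032). Grb10 was higher by 0.87 ± 0.17 (1.83-fold, adjusted p = 0.00255) and Dlk1 by 1.15 ± 0.30 (adjusted p = 0.0254). Igf2 did not pass, at 0.67 ± 0.21 (95% interval 0.25 to 1.09, adjusted p = 0.0578), nor did Meg3, at 0.49 ± 0.23 (interval 0.02 to 0.95, adjusted p = 0.267). The Mir675 feature was higher in Tg by 1.47 ± 0.27 (adjusted p = 0.00113).

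**Figure D3:**
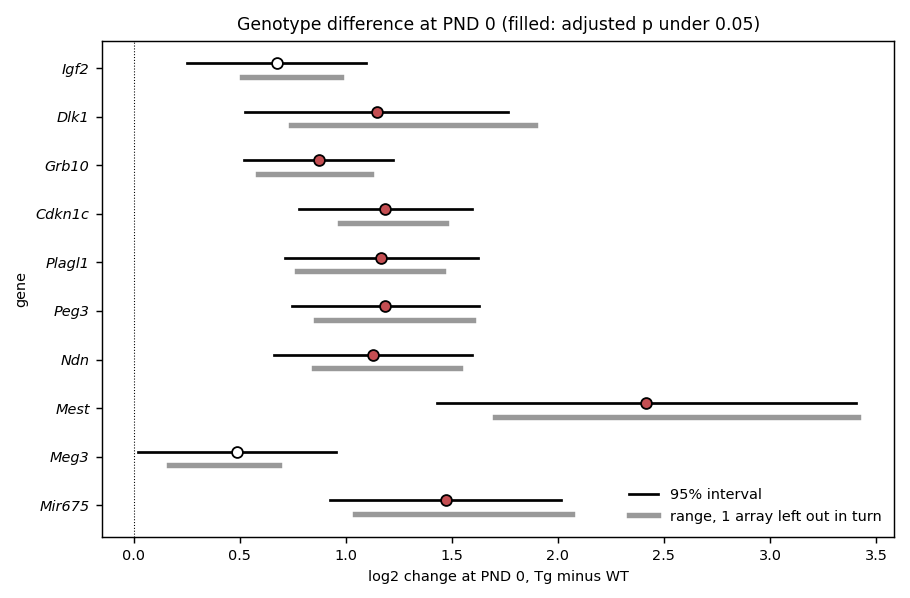
Log2 difference at PND 0, Tg minus WT (x axis), for the 9 imprinted genes and Mir675 (rows), with the 95% interval as a black line, filled circles for adjusted p under 0.05 and open circles otherwise, and grey bars for the range when each of the 6 newborn arrays was left out in turn. All points lie right of 0; Mest is farthest right at 2.42, and Igf2 and Meg3 have open circles.

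The newborn difference was uneven between Tg arrays. Relative to the mean of the 3 WT arrays, Mest stood at 3.85 and 2.99 in Tg replicates 1 and 3 but at 0.42 in replicate 2. Dlk1 stood at 1.95 and 1.83 in those 2 arrays and at -0.35 in replicate 2, and Igf2 at 1.00 and 0.96 and at 0.06. Only Meg3 was highest in replicate 2, at 1.13, against 0.09 and 0.24 in replicates 1 and 3. Without Tg replicate 2, Igf2 differed by 0.98 (adjusted p = 0.00126), Mest by 3.42 and Dlk1 by 1.89, with 8 of the 9 genes called.

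Without the library labelled Tg replicate 3, 6 of the 9 genes were higher in Tg: Mest by 2.13, Peg3 by 1.09, Grb10 by 1.00, Plagl1 by 0.99, Cdkn1c by 0.97 and Ndn by 0.94. Dlk1 was then 0.80 (adjusted p = 0.155), Igf2 0.53 (adjusted p = 0.205) and Meg3 0.61 (adjusted p = 0.189). Dlk1 also lost its call without Tg replicate 1 (0.74, adjusted p = 0.258), without WT replicate 1 (1.20, adjusted p = 0.0518) and without WT replicate 2 (1.01, adjusted p = 0.0857). The drop to PND 3 in Tg kept all 9 calls without the library labelled replicate 3, with changes from -6.36 for Meg3 to -1.62 for Ndn. When only the 6 newborn arrays were fitted, 0 of the 9 genes and 0 of all features passed, and 5 of the 9 genes had an unadjusted p under 0.05.

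Fibroblast and erythroid genes were also uneven between the newborn Tg arrays. The mean of 15 fibroblast genes (Col1a1, Col3a1, Pdgfra and others) was 7.36, 4.57 and 6.91 in Tg replicates 1, 2 and 3 at PND 0, and 4.31, 5.11 and 4.70 in WT. Of the 15, 10 were higher in Tg, with a median difference of 1.77. Of all features, 2.74% were higher in Tg at PND 0 and 1.59% lower. The fibroblast count was 5 without the library labelled Tg replicate 3. With Tg replicate 1 left out it was 3, with Tg replicate 2 left out 14, and with WT replicate 1 left out 6. The mean of 7 erythroid genes was 7.66, 3.63 and 6.87 in Tg and 3.70, 3.90 and 3.74 in WT, and 5 of the 7 were higher in Tg, with 5 again without the library labelled Tg replicate 3 and 0 without Tg replicate 1. Replicates 1 and 3 of Tg were thus high for fibroblast and erythroid genes as for Mest, Dlk1 and Igf2, and replicate 2 of Tg was not. The WT arrays followed the fibroblast mean only in part. WT replicate 2 was the highest WT array for that mean and for Mest, Ndn, Peg3, Igf2 and Meg3. For Dlk1 it was the lowest, at -0.26 relative to the WT mean, against 0.11 and 0.15 in the other WT arrays. Grb10, Cdkn1c and Plagl1 were highest in WT replicate 3.

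Skeletal muscle genes behaved otherwise: the mean of 15 such genes was 6.31, 5.76 and 5.14 in Tg and 3.40, 3.37 and 3.66 in WT, so Tg replicate 2 was high as well, and 12 of the 15 were higher in Tg (13 without the library labelled Tg replicate 3, and 12 without any other newborn array). Of 10 endothelial genes 0 were called, and of 12 alveolar epithelial genes 0 were higher and 1 was lower in Tg. Of 13 alveolar macrophage genes 0 were higher and 4 were lower, and of 10 pan-macrophage genes 0 were called. The shares of all features at PND 0 were 2.74% higher and 1.59% lower in Tg. Without the library labelled Tg replicate 3, 6 of the alveolar macrophage genes and 4 of the pan-macrophage genes were lower in Tg, 1 endothelial gene was higher and 1 alveolar epithelial gene was lower. These counts moved with other arrays too: the alveolar macrophage count was 0 without Tg replicate 1 and 1 without WT replicate 1 or 2, the pan-macrophage count was 8 without WT replicate 3, and 4 endothelial genes were higher without Tg replicate 2. From PND 0 to PND 3 the fibroblast genes fell in 15 of 15 cases in Tg (13 without the library labelled Tg replicate 3) and in 11 of 15 in WT. The alveolar epithelial genes fell in 11 of 12 cases in both. Muscle genes fell in 11 of 15 cases in Tg but 1 of 15 in WT, and erythroid genes in 5 of 7 and 0 of 7. Pan-macrophage genes rose in 10 of 10 cases in Tg and 7 of 10 in WT (median changes 1.34 and 0.76). Over this step 14.0% of all features were lower and 16.0% higher in Tg, and 12.0% lower and 14.0% higher in WT. The part of these cells in the levels of the imprinted genes was not tested. In the study's stained cell counts at PND 0, made before the depletion column, nearly all cells were macrophages and the rest lymphocytes. The paper allows for a small percentage of epithelial cells in its samples. Where a sample holds several cell types, fewer cells of a type and less RNA per cell cannot be told apart.

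**Figure D4:**
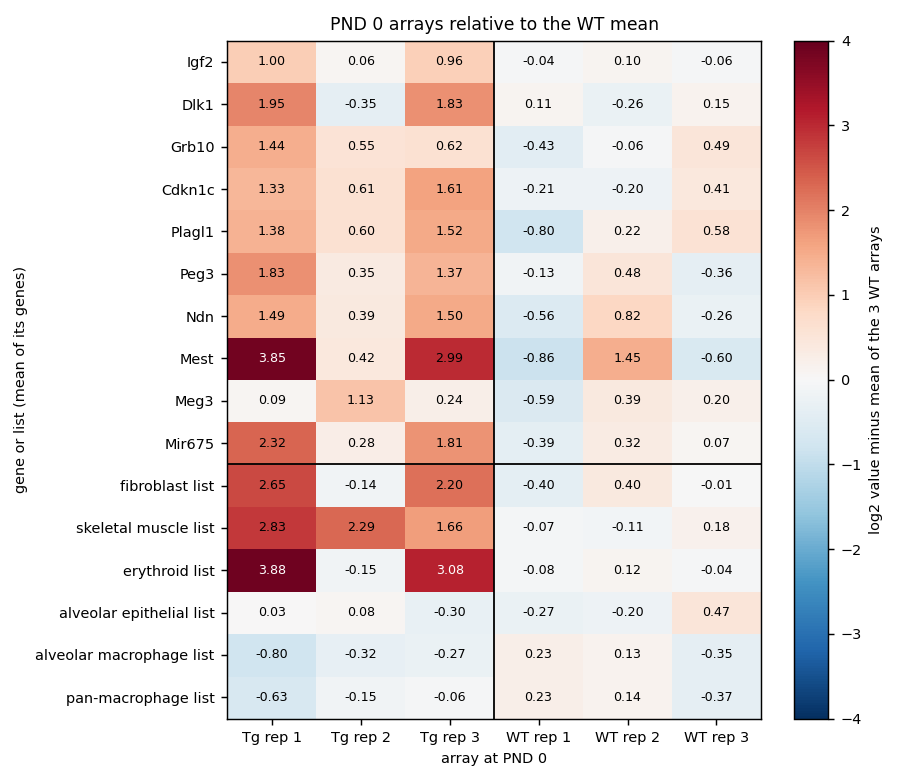
Log2 value minus the mean of the 3 WT arrays (colour and printed number) for the 9 imprinted genes, Mir675 and the means of 6 cell type lists (rows) in the 6 arrays at PND 0 (columns, Tg left of WT). Tg replicates 1 and 3 are red for Mest, Dlk1, the fibroblast list and the erythroid list, where Tg replicate 2 is near 0; the muscle list is red in all 3 Tg arrays.

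The drop from PND 0 to PND 3 was larger in Tg than in WT for 5 of the 9 genes, where 1.58% of all features were called in this direction. Since the genotypes were close at PND 3, this comparison shares its newborn arrays with the genotype difference and is not separate evidence. Tg minus WT, the changes differed by -2.29 ± 0.64 for Mest (adjusted p = 0.0421), -1.31 ± 0.29 for Plagl1 (adjusted p = 0.00977), -1.20 ± 0.26 for Cdkn1c (adjusted p = 0.0086), -1.15 ± 0.29 for Peg3 (adjusted p = 0.0201) and -1.07 ± 0.30 for Ndn (adjusted p = 0.0457). Dlk1 at -1.15 ± 0.40 (adjusted p = 0.124), Grb10 at -0.62 ± 0.23 (adjusted p = 0.149), Igf2 at -0.50 ± 0.27 (adjusted p = 0.41) and Meg3 at -0.28 ± 0.30 (adjusted p = 0.758) did not pass. Without the library labelled Tg replicate 3 at PND 0, 3 genes passed, Plagl1, Peg3 and Cdkn1c, and without Tg replicate 2 at PND 0, 7 passed. Ndn and Mest each lost this call in 12 of 14 fits with 1 array left out, and Peg3 lost it without Tg replicate 1 at PND 0 (adjusted p = 0.095).

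At the later ages no genotype difference was called in this set. In Tg against WT at PND 3, at PND 10, at PND 42 and in GF mice, 0 of 9 genes were called and 0 had an unadjusted p under 0.05, where 4.05%, 1.57%, 4.49% and 4.91% of all features were called. The differences, Tg minus WT, ranged between -0.15 and 0.25 at PND 3, between -0.18 and 0.17 at PND 10, between -0.16 and 0.13 at PND 42 and between -0.21 and 0.17 in GF mice.

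Several of these genes are neighbours in imprinted domains. On chromosome 12, Dlk1 and Meg3 stand side by side and are followed by Rian and by many microRNA genes that lie in the same maternally expressed stretch up to Dio3. Rian, a noncoding RNA that hosts small nucleolar RNAs, was 0.80 ± 0.14 higher in Tg at PND 0 (adjusted p = 0.000589), and changed by -1.09 at PND 3 in Tg. In WT its change was -0.35 (adjusted p = 0.0405), and that call was lost in 10 of 15 alternative settings. Begain, on the other side of Dlk1, stood at -0.07 in WT, PND 3 minus PND 0 (adjusted p = 0.746), and Dio3 at -0.01 (adjusted p = 0.98). Of 36 microRNA features in the stretch, 12 were lower at PND 3 in Tg and 7 in WT, where 14.0% of all features were lower in Tg and 12.0% in WT. The largest of these decreases were those of Mir485 in Tg (-1.33) and Mir341 in WT (-1.16). At PND 0, 5 of the 36 were higher in Tg, while Mir341 was lower (-0.86, adjusted p = 0.0127). By the same rule 2.74% of all features were higher at PND 0 and 1.59% lower. The neighbours were chosen after their values were seen.

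The microRNA features lower in both genotypes in these domains were Mir666 and Mir485 beside Mir675. Mir485 changed by -0.82 in WT (adjusted p = 0.00349) and Mir666 by -0.49 (adjusted p = 0.00319). Their mature products in the RefSeq table (GRCm38.p6, chromosome 12) are shown to compare seeds, in capitals, with those of miR-675.
miR-666-5p: aGCGGGCAcagcugugagagcc
miR-666-3p: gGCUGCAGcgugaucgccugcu
miR-485-3p: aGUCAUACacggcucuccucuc
Together with miR-675 these are 5 mature sequences with 5 distinct seeds, so no pair shares a seed.

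On chromosome 7 the drop was limited to some genes of the neighbourhood. In WT Igf2, Mir675 and Cdkn1c fell and, by less, the potassium channel gene Kcnq1 (-0.76, adjusted p = 0.0021) and Igf2os (-0.33, adjusted p = 0.0421), while Ctsd, a lysosomal protease gene at the edge of the same stretch, rose by 0.23 (adjusted p = 0.00932), Lsp1, a leukocyte gene, by 0.85 (adjusted p = 2.58e-06) and Slc22a18, an imprinted transporter gene beside Cdkn1c, by 1.10 (adjusted p = 8.47e-05). Mrpl23, Cd81 and Nap1l4 were not called in WT, at -0.08, 0.22 and 0.03. The imprinted genes Phlda2 and Ascl2 were dim at PND 0 in both genotypes, at 3.64 and 2.97 in Tg and 3.64 and 3.01 in WT, and were not called.

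**Figure D5:**
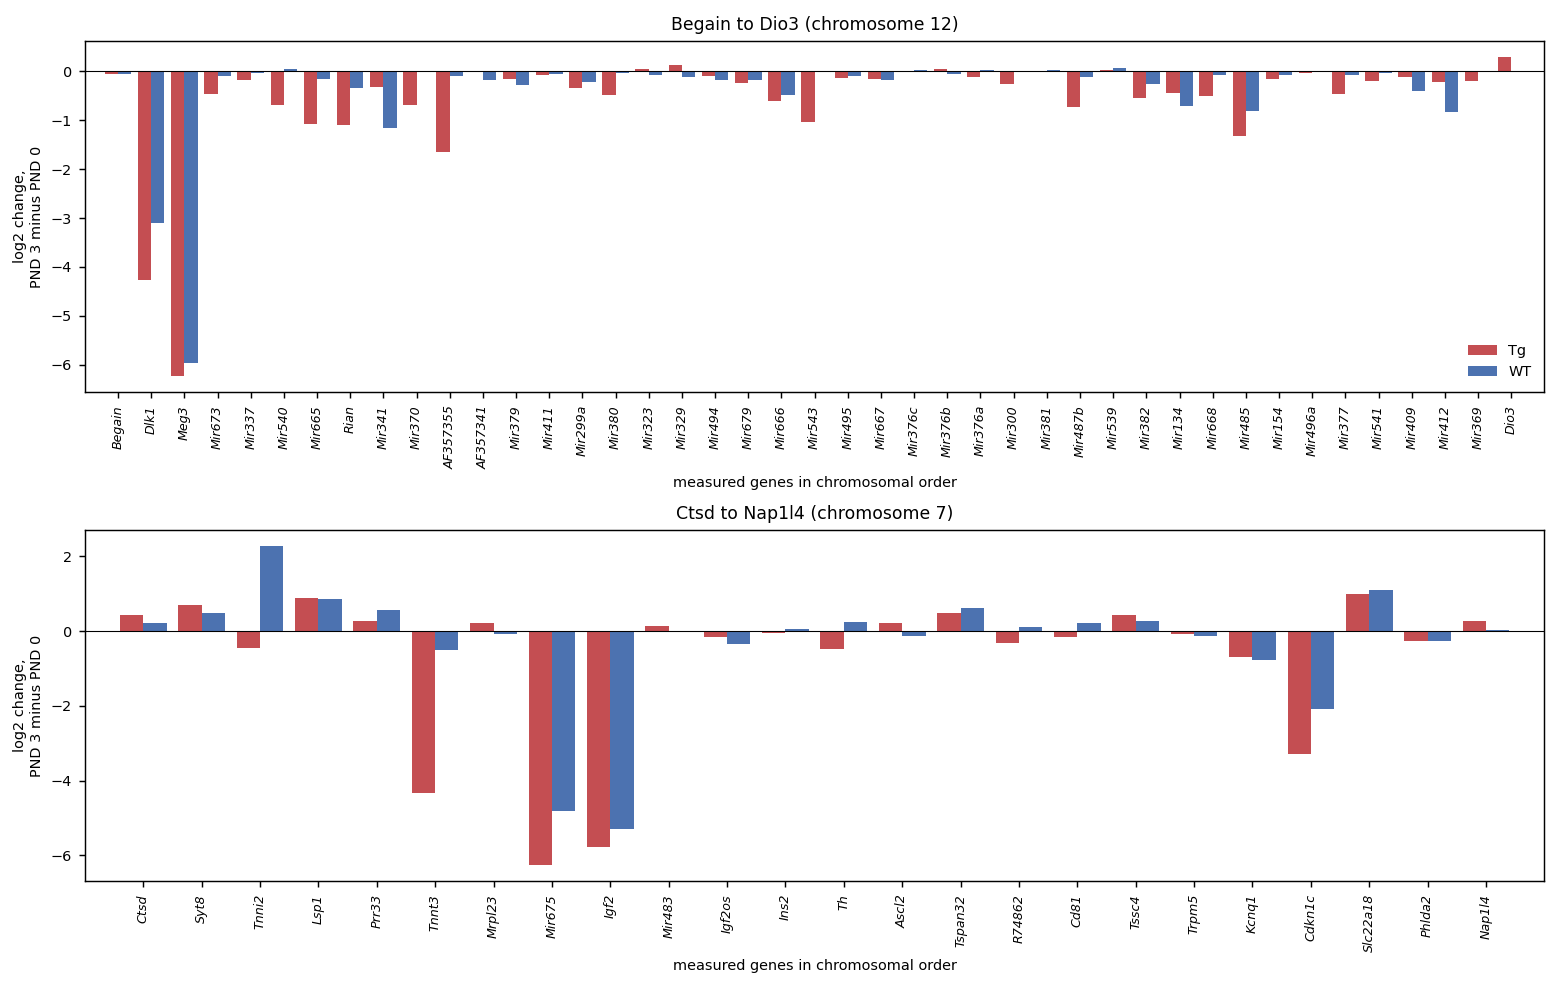
Log2 change, PND 3 minus PND 0 (y axis), in Tg (red) and WT (blue) for measured genes in chromosomal order (x axis, not to distance) from Begain to Dio3 on chromosome 12 (top) and from Ctsd to Nap1l4 on chromosome 7 (bottom). Dlk1 and Meg3 reach -4.26 and -6.24 in Tg, and the lowest microRNA gene of the top panel is Mir485 at -1.33 in Tg and Mir341 at -1.16 in WT. In the bottom panel Mir675, Igf2 and Cdkn1c lie low in both genotypes, the muscle gene Tnnt3 lies at -4.34 in Tg, and the muscle gene Tnni2 lies at 2.28 in WT.

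Other imprinted genes did not all fall as the 9 did, though a larger share of them was called lower than of all features. Of 31 further imprinted genes measured, 13 were lower and 5 higher at PND 3 than at PND 0 in Tg, with a median change of -0.18, and 11 were lower and 4 higher in WT, with a median of -0.26. Of all features, 14.0% were lower and 16.0% higher at PND 3 in Tg, and 12.0% were lower and 14.0% higher in WT. The largest decreases in WT were those of Nnat, which encodes the membrane proteolipid neuronatin (-3.21 ± 0.31), Peg10, a gene of retrotransposon origin (-2.23 ± 0.37), Igf2r (-2.00 ± 0.44) and Airn, a noncoding RNA antisense to Igf2r (-1.54 ± 0.30). Asb4 rose by 1.16 in Tg and by 1.08 in WT. At PND 0, 4 of the 31 were higher in Tg and 0 lower, namely Zim1, a zinc finger gene next to Peg3 (1.85 ± 0.42), Slc38a4, an amino acid transporter gene (0.89 ± 0.15), Rian and Gnas, the gene of a stimulatory G protein subunit (0.47 ± 0.13). Of all features, 2.74% were higher in Tg at PND 0 and 1.59% lower. The median difference of the 31 was 0.04, and without the library labelled Tg replicate 3 the count was again 4, with Gnas not among them. Zim1 read 6.95, 3.22 and 5.65 in Tg at PND 0, and 3.55, 3.07 and 3.66 in WT, so Tg replicate 2 lay within the WT range. Without Tg replicate 1 its difference was 1.01 (adjusted p = 0.118). Gnas lost its call without Tg replicate 1 (0.30, adjusted p = 0.317) or 3 (0.49, 0.0586) and without WT replicate 1 (0.35, 0.214) or 2 (0.46, 0.0762). Rian and Slc38a4 kept theirs whichever newborn array was left out.

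The genes of the IGF pathway, through which Igf2 acts, changed in both directions, with more of them lower than higher at PND 3. Of 18 measured, 11 were lower and 2 higher at PND 3 in Tg (median -0.89), and 12 were lower and 3 higher in WT (median -1.28). By the same rule 14.0% of all features were lower and 16.0% higher in Tg, and 12.0% were lower and 14.0% higher in WT. Among the 18 the largest decreases were those of Igfbp5 and Igfbp3, binding proteins that hold IGFs outside the cell: Igfbp5 fell by 4.92 in Tg and 4.12 in WT on the log2 scale, and Igfbp3 by 4.41 in Tg and 3.12 in WT. Igf1, the IGF ligand that is not imprinted, moved the other way, at 1.54 ± 0.37 in Tg (adjusted p = 0.00162) and 1.34 ± 0.37 in WT (adjusted p = 0.00666). Its call was lost in Tg without Tg replicate 2 at PND 0 (0.88, adjusted p = 0.0526) and in WT without WT replicate 3 at PND 0 (1.12, adjusted p = 0.056). At PND 0, 5 of the 18 were higher in Tg and 0 lower (median 0.38), with Igfbp4 at 1.63, the receptor substrate Irs1 at 1.53, Igfbp3 at 1.22, Igfbp7 at 1.13 and Igfbp2 at 0.94. Over all features the shares at PND 0 were 2.74% higher and 1.59% lower. The 5 calls turned on single arrays. Without the library labelled Tg replicate 3 the count was 2, and Igfbp4 (1.04, adjusted p = 0.221), Igfbp3 (adjusted p = 0.0589) and Igfbp2 (0.58, adjusted p = 0.132) were not called. Leaving out Tg replicate 1 gave a count of 1, as did leaving out WT replicate 1. Irs1 was not called without Tg replicate 1 (1.16, adjusted p = 0.101) or WT replicate 1 (1.04, adjusted p = 0.0899), and Igfbp7 was not called without Tg replicate 1 (0.71, adjusted p = 0.117).

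Igf2r, the imprinted receptor that clears Igf2 from the cell surface, differed between genotypes at later ages, when Igf2 was low. At PND 3 it read 8.02, 8.22, 8.34 and 7.66 in Tg, and 7.26, 3.90, 4.24 and 5.10 in WT. At PND 42 it read 5.98, 6.27, 6.32 and 6.37 in Tg, and 3.40, 3.52, 3.66 and 3.77 in WT. No Tg array overlapped WT at either age, and WT replicate 1 at PND 3 stood apart from the other WT arrays. At PND 0 the genotypes lay together, at 7.20, 7.33 and 6.93 in Tg and 7.11, 7.32 and 6.95 in WT. Tg minus WT was 2.93 ± 0.41 at PND 3 (adjusted p = 1.79e-05), 2.60 ± 0.41 at PND 10 (adjusted p = 0.000198), 2.65 ± 0.41 at PND 42 (adjusted p = 5.06e-05) and 2.70 ± 0.47 in GF mice (adjusted p = 0.000308), and the change from PND 0 to PND 3 differed between genotypes by 2.91 ± 0.62 (adjusted p = 0.00678). Airn overlaps Igf2r on the opposite strand, and how far the feature separates the strands is not given in the sources used here.

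Likeness to the mean of the 9 imprinted genes, each scaled to its own spread, was ranked over all 36 arrays among features with 1 symbol. The members and the predicted, clone, RIKEN, microRNA and small nucleolar RNA names were left out. The most alike of the rest were Igfbp3 (r = 0.989), Wfdc1 (r = 0.988), Gpc3 (r = 0.987), Bicc1 (r = 0.987), Nfib (r = 0.987), Hspg2 (r = 0.986), Bgn (r = 0.986) and Col6a1 (r = 0.985). These correlations describe 36 arrays that share ages and pools, and most of their height comes from the step between PND 0 and the later ages. Gpc3, a glypican of fetal tissues, read 8.10, 7.14 and 7.91 in Tg at PND 0, and 6.63, 6.60 and 6.80 in WT. Bgn, the matrix proteoglycan biglycan, read 8.64, 7.35 and 8.82 in Tg and 7.37, 7.81 and 7.46 in WT. As with Mest and Dlk1, Tg replicate 2 was the lowest Tg array for both. Both were chosen for likeness to the 9 genes on these same arrays, so a shared order is partly built in.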

How the data were processed

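The 36 arrays were Affymetrix Mouse Gene 1.0 ST, made from 12 ng of RNA per array after whole transcriptome amplification. Per the labels and the study's methods, the authors corrected background, quantile normalized and summarised probes in Partek (version 6.5 in the submitters' processing notes) by RMA, and deposited the resulting log2 intensities. Of 35556 features in the table, 6616 numbered below the first annotated feature, taken as controls, were left out, and 28940 were analysed: 21218 had 1 gene symbol in the platform annotation, 1881 had several and 5841 had none. No probe-level file or detection call was used here. RMA compresses changes of dim features.

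Group means of the 10 groups were fitted on the log2 values with limma 3.58.1 in R 4.3.3 (lmFit and eBayes, 26 residual degrees of freedom) without covariates, 14 contrasts were taken, and p-values were adjusted by Benjamini-Hochberg over all 28940 features in each, with calls at 0.05. Tests are two-sided, intervals are 95%, and an exact test of 3 against 3 arrays cannot go below 0.1. The script was tested on simulated data. Genes named were the members, the strongest called genes of each list and the 8 most correlated with the members among the features ranked for likeness. The members and lists were chosen with earlier results of these data known. Gene order came from RefSeq; the array annotation uses another build, so no gene coordinates are given. Same-numbered replicates of Tg and WT did not deviate together (correlations -0.13 to 0.24), so the numbers pair nothing. The number of arrays limits the precision. Alternatives tried were the arrays fitted, weights, variance prior, normalization, filters, replicate block and each array left out. The labels give 36 arrays, and all were used.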

Additional observations from a re-analysis of the deposited data

Results flagged for a closer look

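The change from PND 0 to PND 3 differed between genotypes for 5 of the 9 genes by the test of the difference itself. Tg minus WT, it was -2.29 for Mest, -1.31 for Plagl1, -1.20 for Cdkn1c, -1.15 for Peg3 and -1.07 for Ndn. Of all features, 1.58% were called in this direction. Mest and Ndn each lost the call in 12 of 14 fits with 1 array left out. With only the compared groups fitted, 0 of the 9 passed. The test shares its newborn arrays with the PND 0 difference and is not separate evidence.

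A single array stood apart from the others of its group in 5 of 54 gene and group combinations. Chance alone would give about 1 in 20. Only the SPF groups older than newborn were tested. The newborn and GF groups, which hold fewer arrays, were left out, and with them uneven newborn values such as Mest in WT replicate 2. In absolute terms the gaps were small, as the values below show. Dlk1 read 2.80 in Tg replicate 1 at PND 3, and the next array read 2.63. Grb10 read 3.13 in Tg replicate 2 at PND 10, the lowest of its group, with the next at 3.31. Grb10 read 3.24 in WT replicate 3 at PND 3, with the next at 3.12. Plagl1 read 4.38 in Tg replicate 3 at PND 10, with the next at 3.92. Plagl1 read 3.74 in WT replicate 1 at PND 10, with the next at 3.87.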

How the results depend on the processing

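No named gene changed direction while called. The count of the 9 genes lower at PND 3 stayed at 9 in Tg under every alternative, and ranged between 7 and 9 in WT. The count higher in Tg at PND 0 was 7, was 0 with only the 6 newborn arrays fitted (5 at an unadjusted p under 0.05), and ranged between 6 and 8 with each array left out. It was 6 with weights by group variance, and 5 without replicate 3 of both genotypes. The count of genes whose drop differed between genotypes was 5. It was 0 with only the 14 arrays compared (5 at an unadjusted p under 0.05, 59 features called), and 3 with weights by group variance, with all 35556 features kept, with the replicate block and without replicate 3 of both genotypes at PND 0. It ranged between 2 and 7 with each array left out. Ndn (adjusted p = 0.0665) and Mest (0.0618) lost that call under the block, which changed none of the counts of 7 and 9.

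The drop of Mest in WT also lost its call without WT replicate 1, 3 or 4 at PND 3 (adjusted p 0.0604 to 0.0709), with quantile normalization repeated (0.0866) and with median centring (0.0607). Igf2 passed at PND 0 when quantile normalization was repeated (adjusted p = 0.0484). Igf2r kept its genotype calls at PND 3, 10 and 42 in SPF and GF mice under all alternatives, but not its difference in change in 2 of 23 settings (largest adjusted p 0.184). Spread within groups, as the median SD over all features, was larger at PND 0 (0.19 in Tg, 0.21 in WT) than later (0.13 to 0.17). For some of the 9 genes it was far larger. Relative to the WT mean at PND 0, Mest stood at 3.85, 0.42 and 2.99 in Tg and at -0.86, 1.45 and -0.6 in WT. Its 30 later arrays all lay between 3.38 and 4.00. A fit over all groups therefore understates the newborn error of such genes. Where the cause of a lost call is not the smaller number of arrays, it was not tested.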

Other observations

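Beside Igf2r, 3 genes of the imprinted and IGF lists differed by genotype in adult mice of both housings. Igf1 read 9.62, 9.63, 9.59 and 9.98 in Tg and 7.01, 7.05, 7.30 and 6.60 in WT in SPF mice at PND 42, and 9.41, 9.69 and 9.93 in Tg and 5.18, 5.83 and 5.78 in WT in the GF colony. Tg minus WT was 2.72 ± 0.35 in SPF mice (limma, adjusted p = 2.67e-06) and 4.08 ± 0.40 in GF mice (adjusted p = 4.18e-08), and the difference between housings was not tested. Igf2bp3, an RNA binding protein gene named for Igf2 messenger RNA, was higher in Tg by 0.97 ± 0.13 in SPF mice and by 1.69 ± 0.15 in GF mice. Ppp1r9a, an imprinted neighbour of Peg10, was lower in Tg, with differences of -1.01 ± 0.16 in SPF mice and -0.96 ± 0.18 in GF mice.

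Peg10 was higher in Tg in the adult GF mice, at 4.95, 3.98 and 6.41 in Tg and 2.84, 2.89 and 2.81 in WT, a difference of 2.27 ± 0.39 (adjusted p = 0.000306). Its newborn values were 6.37, 5.40 and 6.44 in Tg and 6.19, 4.37 and 4.59 in WT. In SPF mice at PND 42 it read 3.51, 3.10, 3.34 and 3.01 in Tg and 2.81, 2.80, 2.80 and 2.89 in WT and was not called.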
